A study of Mus musculus with 6 samples.

Results

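The nuclear receptors are transcription factors that bind DNA through a shared zinc-finger domain and, in many members, change their activity when a small fat-soluble ligand enters a pocket in a second domain. Their ligands include steroid and thyroid hormones, vitamin D, retinoic acid, fatty acids, oxysterols and bile acids, and members with no established ligand are called orphans. Many of them work as pairs with a retinoid X receptor (RXR), and in fat tissue they set adipocyte differentiation, lipid storage and the response to glucocorticoids. The 45 receptor genes described here were taken by symbol from a fixed list that leaves out Pparg, and all 45 were found among the 22134 genes of the table.

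RNA was sequenced from adipose tissue of mice of WT genotype in 6 libraries. In 3 of them the tissue was creeping fat, which wraps around damaged bowel, from animals whose colon was injured by cautery more than once, and in 3 it was healthy mesenteric fat of animals left uninjured. No strain, age, sex or interval since injury is given in the labels. Nor do the labels tie a library to an animal, so the p-values cover the spread among these samples alone, and this may be technical. Levels are in FPKM, fragment counts divided by gene length and library size. The library totals recovered from the values were 32837045 to 36158204 reads in creeping fat and 31186018 to 43415696 in controls.

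Creeping fat differed from control fat in a few receptors, and most of the family did not pass the test. Of the 45 receptors 31 reached 1 FPKM in at least 3 of the 6 libraries and were tested. Rxrg, Nr1h3, Ppara and Rxra fell, Nr2f1 and Vdr rose, and 25 did not pass at a Benjamini-Hochberg adjusted p under 0.05 in limma. The 6 called genes were 19.4% of the tested receptors, beside 16.2% of all 12812 genes tested, a share near the background. Those called lower were 4 of 31, where 6.81% of all genes were called lower, and those called higher were 2 of 31, where the share of all genes was 9.35%. The median log2 fold change was 0.06 over the tested receptors and 0.02 over all genes tested. Without adjustment, 5 of the 31 receptors were higher and 7 lower at p under 0.05 in limma, beside 2184 and 1759 of all 12812 genes.

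The count changed when single libraries were left out, and so did that of all genes. Receptors called higher numbered 1 without creeping fat 1, creeping fat 2, control 1 or control 3 and 5 without control 2. Receptors called lower numbered 2 without creeping fat 1 or control 3 and 6 without control 2. Rarg, Rara and Nr4a1 were called higher and Nr3c1 and Thrb lower once control 2 was left out. Control 2 held 0.122% of its FPKM in 10 lymphocyte markers, against 0.0273% and 0.0364% in control 1 and 3, and its adipocyte markers were at 1.75% against 4.66% and 4.28%. The part of this difference in the counts was not tested.

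Marker genes of other tissues also moved with the groups. The 10 seminal vesicle markers made up 5.12% to 9.15% of all FPKM in the creeping fat libraries and no more than 0.0164% in the control ones, with none of the 10 at 0 across a whole group. The 20 pancreatic acinar markers found held 0.00797% to 1.6% in creeping fat and 4.92% to 12.8% in controls, likewise with none at 0. Detection alone does not identify the tissue, since the markers of these other tissues were also detected in both groups, like all 15 adipocyte markers. These 15 genes summed to 1334, 3324 and 1980 FPKM in creeping fat 1 to 3 and to 16944, 5970 and 14855 FPKM in control 1 to 3, and 13 of them fell. The 12 macrophage markers summed to 3692 to 5845 FPKM in creeping fat and 856 to 1836 FPKM in controls, and 8 of the 12 were called higher. Lyz2 alone held 2084.5 to 3811.3 FPKM of this sum in creeping fat and 467.4 to 792.6 FPKM in controls. Cd163 went the other way (9.67 ± 4.33 against 20.4 ± 7.78 FPKM) and was not called. In bulk tissue, fewer cells of a type and less RNA per cell cannot be told apart. The part of these tissues and cell types in the receptor results below was not tested.

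Promoters of 4 receptors whose transcripts changed are shown, from the 250 bases before the RefSeq start, GRCm38.p6 build, which is mm10. They are the 3 called under each alternative in which they were tested (Rxrg, Nr1h3 and Nr2f1) and Rxra, the more abundant partner of Rxrg. Capitals mark GC boxes (GGGCGG or CCGCCC), the site class bound by Sp1. The core hexamer of nuclear receptor sites, AGGTCA or TGACCT, was searched on both strands too and is not in these 4 windows. RefSeq gives 2 windows for each of the 4 genes, and the one nearest the GENCODE start is shown. Only the Rxrg window lies before the GENCODE start of its gene. Those of Rxra, Nr1h3 and Nr2f1 lie inside the GENCODE span, and the Nr1h3 window is far from the GENCODE start at 91202834. The 4 windows are thus not at like positions, which limits comparison of their makeup. The windows of Rxra and Rxrg that are not shown do hold the hexamer.
Rxrg, chr1:167598112-167598361, plus strand: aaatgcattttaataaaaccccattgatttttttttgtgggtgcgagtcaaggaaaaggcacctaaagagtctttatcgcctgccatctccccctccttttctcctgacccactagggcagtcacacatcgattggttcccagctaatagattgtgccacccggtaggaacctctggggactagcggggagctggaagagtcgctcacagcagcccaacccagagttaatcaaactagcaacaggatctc
Rxra, chr2:27676951-27677200, plus strand: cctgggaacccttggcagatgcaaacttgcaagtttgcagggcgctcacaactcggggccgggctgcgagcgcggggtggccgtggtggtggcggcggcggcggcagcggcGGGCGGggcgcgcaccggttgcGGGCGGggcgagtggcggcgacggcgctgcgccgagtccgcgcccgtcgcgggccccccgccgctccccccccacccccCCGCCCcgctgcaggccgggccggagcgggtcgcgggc
Nr1h3, chr2:91195117-91195366, minus strand: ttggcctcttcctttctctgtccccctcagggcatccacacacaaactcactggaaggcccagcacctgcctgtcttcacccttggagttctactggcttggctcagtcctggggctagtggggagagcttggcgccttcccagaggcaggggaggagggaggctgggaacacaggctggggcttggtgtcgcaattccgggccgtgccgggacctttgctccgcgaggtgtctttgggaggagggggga
Nr2f1, chr13:78198874-78199123, minus strand: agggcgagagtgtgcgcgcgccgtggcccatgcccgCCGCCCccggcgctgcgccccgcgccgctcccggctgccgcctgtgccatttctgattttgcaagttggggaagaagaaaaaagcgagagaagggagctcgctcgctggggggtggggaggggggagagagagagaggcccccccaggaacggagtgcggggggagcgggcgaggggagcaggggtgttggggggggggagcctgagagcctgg
The Rxra window was 81.2% G or C with 40 CpG dinucleotides and 3 GC boxes, whereas the Rxrg window was 49.2% G or C with 6 CpG and 0 GC boxes. The Nr1h3 window held 7 CpG (63.2% G or C) and 0 GC boxes, and the Nr2f1 window 22 CpG (72.0% G or C) and 1 GC box. The median over all 32851 promoter windows of RefSeq was 52.4% G or C and 6 CpG. Sequences were found for 41 of the 45 receptors, in 60 windows. GC boxes were in 43.3% of these receptor windows and 32.7% of all windows, and the AGGTCA hexamer was in 15% and 14.0%. A match is a description of these letters, not a bound site.

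**Figure D1:**
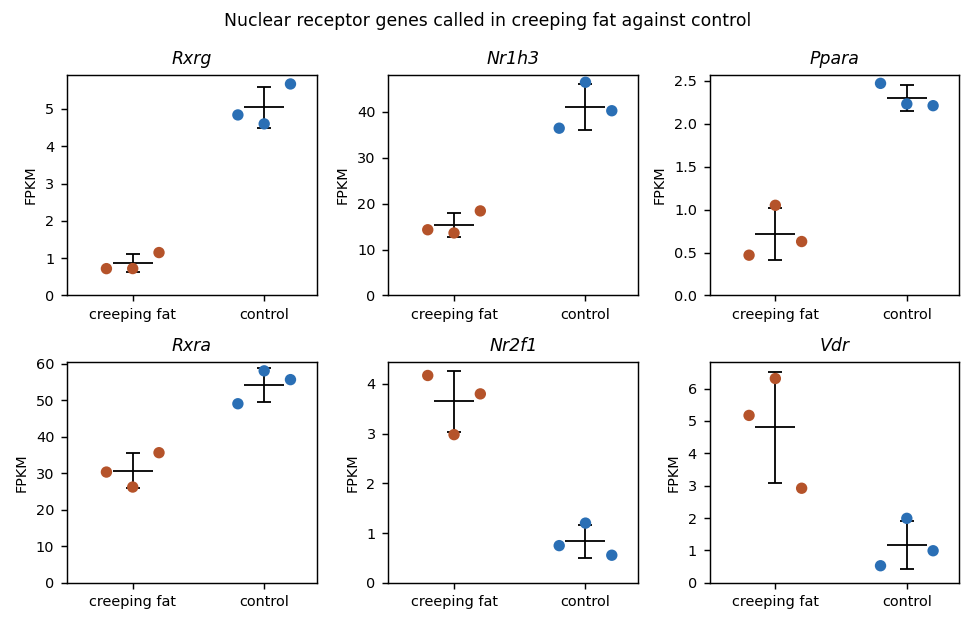
FPKM in each library (points; vertical axes start at 0) of the 6 called receptor genes in creeping fat (orange) and control fat (blue), with the mean and SD of 3 libraries in black. The groups do not overlap in any of the 6 genes, and Vdr has the widest relative spread, with creeping fat 3 at 2.92 FPKM and control 2 at 1.99 FPKM.

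The retinoid X receptors are the shared partners of the family. Rxrg, a form found in few tissues, had 0.719, 0.721 and 1.15 FPKM in libraries 1 to 3 of creeping fat and 4.84, 4.6 and 5.67 FPKM in those of control fat. All control libraries lay far above all creeping fat libraries, and the reads behind these values were 63 to 94 in creeping fat and 359 to 615 in controls. Rxrg fell by 1.70 ± 0.16 on the log2(FPKM + 1) scale (SE; limma adjusted p = 0.00182), and the mean was 5.84-fold lower on the FPKM scale. The added 1 compresses the change of a gene this low, and voom on the recovered reads gave -2.59. In GRCm38 the protein-coding gene Rxrg lies on chromosome 1 from 167598384 to 167639623.

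Rxra, the receptor with the highest mean FPKM of the 45, stood at 30.3, 26.2 and 35.6 FPKM in creeping fat and 49.0, 58.0 and 55.6 FPKM in controls. Its groups did not overlap either, and it fell by 0.81 ± 0.16 (adjusted p = 0.018), a smaller change than that of Rxrg by value. The Rxra call was lost without creeping fat 1 (adjusted p = 0.0814), creeping fat 2 (adjusted p = 0.0743) or control 3 (adjusted p = 0.0773). The gene lies on chromosome 2 from 27676440 to 27762957. Rxrb, the broadly expressed beta form, had 16.7, 17.7 and 21 FPKM in creeping fat and 12.8, 25.9 and 14.1 in controls, with means of 18.5 ± 2.25 (SD, n = 3) and 17.6 ± 7.19, and did not pass (0.12 ± 0.27, adjusted p = 0.81). Control 2 held the highest Rxrb value and control 1 the lowest, so the control libraries spanned those of creeping fat.

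The makeup of the RXR pool differed between the groups without overlap. The 3 RXR genes summed to 47.7, 44.7 and 57.7 FPKM in creeping fat and 66.7, 88.5 and 75.4 in controls, with no overlap. Rxrb made up 34.9% to 39.7% of that sum in creeping fat and 18.7% to 29.3% in controls. Rxrg made up 1.51% to 1.98% and 5.21% to 7.52%.

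Among the lipid and bile acid sensors, which bind fatty acids, oxysterols or bile acids and work as pairs with RXR, Nr1h3 and Ppara fell. Nr1h3 encodes LXR alpha, an oxysterol receptor of adipocytes, macrophages and liver. It stood at 14.3, 13.6 and 18.4 FPKM in creeping fat and at 36.4, 46.4 and 40.2 FPKM in controls, so the lowest control was far above the highest creeping fat library. It fell by 1.36 ± 0.17 (adjusted p = 0.00422; 2.65-fold on the FPKM scale), and the call held with each library left out. Nr1h3 lies on chromosome 2 from 91184061 to 91202834.

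Nr1h2, the gene of the broadly expressed paralogue LXR beta, stood at 17.4, 16 and 19.6 FPKM in creeping fat and 14.9, 19.5 and 17.3 in controls. Its groups overlapped and it did not pass (0.04 ± 0.15, adjusted p = 0.913; -0.02 under median of ratios scaling). The ratio of Nr1h3 to Nr1h2 was 0.826, 0.849 and 0.94 in creeping fat and 2.45, 2.38 and 2.32 in controls. Every control library thus had more Nr1h3 than Nr1h2 per unit length, and every creeping fat library had less. The exact two-sided permutation p of this ratio was 0.1, the smallest that 3 libraries against 3 allow. With Nr1h3 already apart between the groups and Nr1h2 in a narrow range, the ratio could not overlap. This p therefore adds no support beyond the Nr1h3 call.

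Ppara, a fatty acid receptor that drives oxidation genes, stood at 0.469, 1.05 and 0.628 FPKM in creeping fat and 2.47, 2.23 and 2.21 in controls. The controls lay close together and above all creeping fat libraries, although the gene is near the filter of 1 FPKM. The reads behind these values were 177 to 382 in creeping fat and 725 to 1003 in controls. The FPKM level depends on an implied length of 10433 bases, against 3836 exonic bases in GENCODE. It fell by 0.96 ± 0.18 (adjusted p = 0.0135; 3.22-fold on the FPKM scale), and by 1.62 with a pseudocount of 0.1 FPKM and 1.77 with voom. The Ppara call was lost without creeping fat 1 (adjusted p = 0.0625), creeping fat 3 (adjusted p = 0.0619) or control 3 (adjusted p = 0.056). The gene lies on chromosome 15 from 85734983 to 85802819.

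Ppard, the broadly expressed fatty acid receptor of this class, was the more abundant PPAR of the 2 listed. Its means were 12.7 ± 0.987 FPKM for creeping fat and 16.4 ± 1.91 for controls, and it did not pass (-0.35 ± 0.14, adjusted p = 0.153). Nr1h4, the bile acid receptor FXR of liver and gut, did not pass at 1.77 ± 0.656 against 0.805 ± 0.472 FPKM (0.62 ± 0.28, adjusted p = 0.184). The class as a whole held 13.5% to 16% of the summed receptor FPKM in creeping fat and 21% to 22% in controls.

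Of the receptors for thyroid hormone, vitamin D and retinoic acid, Vdr rose. Vdr encodes the vitamin D receptor, which is abundant in gut epithelium and is also found in immune and stromal cells. It stood at 5.17, 6.31 and 2.92 FPKM in creeping fat and at 0.526, 1.99 and 0.989 in controls. Creeping fat 3 was the lowest of its group and control 2 the highest of its own, and the groups did not overlap. Vdr rose by 1.43 ± 0.32 (adjusted p = 0.0276; 4.11-fold on the FPKM scale, 2.23 with voom). The call was lost without creeping fat 1 (adjusted p = 0.107), creeping fat 2 (adjusted p = 0.0925), control 1 (adjusted p = 0.077) or control 3 (adjusted p = 0.101), and with no filter on low genes (adjusted p = 0.0563). The gene lies on chromosome 15 from 97854425 to 97910630. Cyp24a1, the vitamin D catabolising enzyme induced by this receptor, was listed at 0 FPKM in all 6 libraries.

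The retinoic acid receptor Rarg, described after its values were seen, stood at 25.1, 22.8 and 26.4 FPKM in creeping fat and 15.1, 19.8 and 15.6 in controls. The groups did not overlap, but the gene missed the threshold (0.54 ± 0.15, adjusted p = 0.0571). Rarg was called higher under quantile normalization (0.52, adjusted p = 0.0301), under median of ratios scaling (0.49, adjusted p = 0.038), with a mean of 5 FPKM required (0.54, adjusted p = 0.0498), without control 2 (0.66, adjusted p = 0.00632) and without both creeping fat 2 and control 2 (0.71, adjusted p = 0.00816). Rara, the broadly expressed form, stood at 15.8 ± 1.39 against 12.2 ± 3.81 FPKM, and Rarb at 2.27 ± 0.597 against 2.38 ± 0.861. Neither passed (adjusted p = 0.298 and 0.956). Of the exonic bases of Rarb, 34.1% are also exons of Top2b on the other strand, so the level of Rarb is uncertain.

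Thra, the more abundant thyroid hormone receptor gene, stood at 23.9, 26.0 and 31.2 FPKM in creeping fat and 24.2, 20.1 and 26.3 in controls. Its groups overlapped and it did not pass (0.19 ± 0.17, adjusted p = 0.502). Thrb stood at 1.77 ± 0.201 against 2.73 ± 0.506 FPKM without overlap and did not pass either (-0.43 ± 0.16, adjusted p = 0.131).

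Nr2f1 rose among the COUP-TF and testicular receptors, orphans of development, vessels and stroma. Nr2f1, which encodes COUP-TFI, stood at 4.17, 2.98 and 3.8 FPKM in creeping fat and at 0.747, 1.2 and 0.554 in controls. All creeping fat libraries were above all controls, on 334 to 483 reads against 77 to 120. It rose by 1.35 ± 0.19 (adjusted p = 0.00629; 4.38-fold on the FPKM scale), and by 2.05 with a pseudocount of 0.1 FPKM and 2.23 with voom. The Nr2f1 call held with each library left out, and the gene lies on chromosome 13 from 78188973 to 78199757.

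Nr2f2, its paralogue COUP-TFII of veins and lymphatics, was more abundant and did not pass. It stood at 18.3, 13.0 and 16.2 FPKM in creeping fat and 12.8, 23.1 and 14.3 in controls (-0.04 ± 0.25, adjusted p = 0.94; 0.20 without control 2), so control 2 lay above all other libraries. Nr2f1 made up 11.1% to 12.9% of the summed FPKM of Nr2f1, Nr2f2 and Nr2f6 in creeping fat and 2.36% to 3.54% in controls. Nr2f6 (10.6 ± 0.62 against 9.83 ± 3.04 FPKM), Nr2c1 (4.01 ± 0.106 against 3.18 ± 0.244) and Nr2c2 (8.26 ± 0.686 against 8.08 ± 2.67) did not pass. Exons of Ocel1 on the other strand cover 54.4% of the exonic bases of Nr2f6, and those of Mrps25 cover 30.7% for Nr2c2. The strand setting of the counting was not given, so the levels of Nr2f6 and Nr2c2 are uncertain, as is the share above. Fibroblast markers moved between the groups the same way as Nr2f1, and all 10 rose. They summed to 10268 to 13798 FPKM in creeping fat and 1024 to 1396 in controls. Within each group the order of libraries did not hold. Creeping fat 2 had the least Nr2f1 of its group with the highest fibroblast sum. Control 2 had the most Nr2f1 of its group with the lowest sum, and control 3 the reverse. Macrophage and seminal vesicle markers rose as well. The part of fibroblasts in the Nr2f1 result was not tested.

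**Figure D2:**
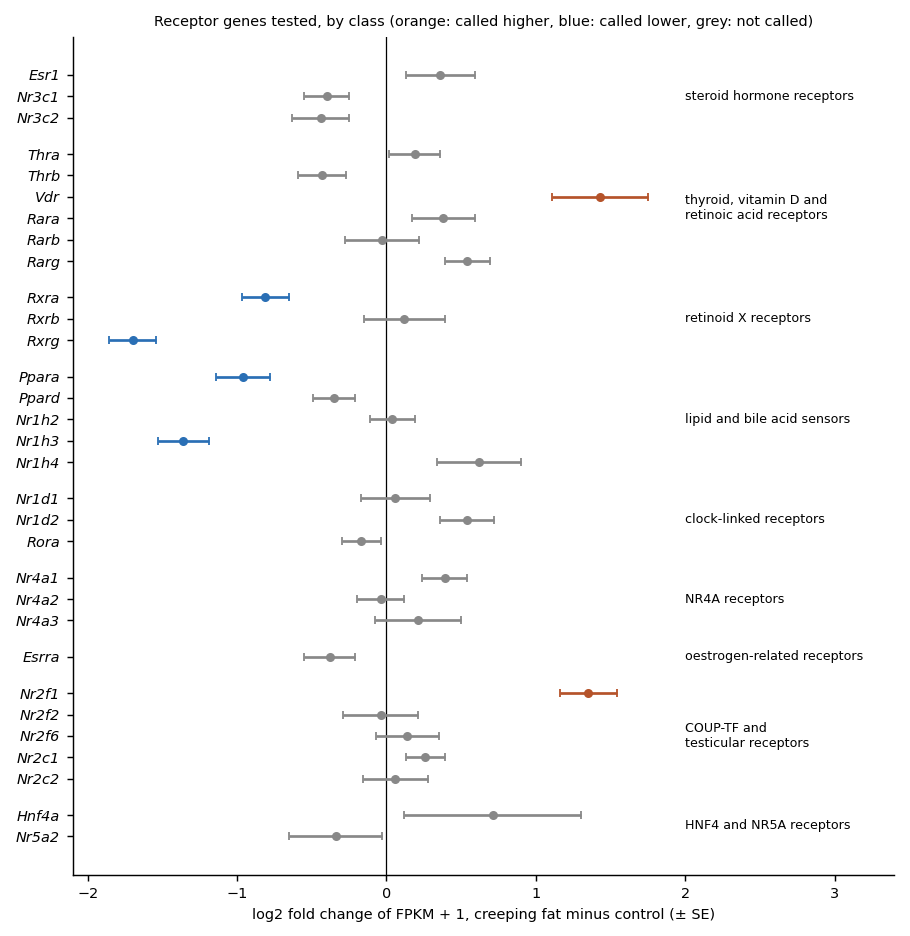
Log2 fold change of FPKM + 1, creeping fat minus control, with SE, of the 31 tested receptors in their classes (orange called higher, blue called lower, grey not called). Rxrg at -1.70 and Vdr at 1.43 are the ends of the range, and in the RXR, LXR and COUP-TF groups called and uncalled paralogues stand side by side.

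None of the 3 tested steroid hormone receptors passed (1 lower at an unadjusted p under 0.05 in limma, and 0 called by voom). Nr3c1, the glucocorticoid receptor, was the most abundant of them at 20.1, 18.1 and 20.2 FPKM in creeping fat and 25.6, 23.0 and 30 in controls. All controls were above all creeping fat libraries, at a log2 fold change of -0.40 ± 0.15 (adjusted p = 0.116). Nr3c1 passed as lower without control 2 (-0.49, adjusted p = 0.0245). Nr3c2, the mineralocorticoid receptor, stood at 2.02 ± 0.40 against 3.12 ± 0.717 FPKM (adjusted p = 0.177), and Esr1, the oestrogen receptor alpha, at 6.84 ± 1.93 against 5.07 ± 1.08 (adjusted p = 0.346). Esr2 and Pgr were under the filter, with at most 8 and 71 reads in a library.

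Of the clock-linked receptors, repressors and activators that act on the circadian feedback loop, none was called by limma or voom with all 6 libraries (1 at an unadjusted p under 0.05). Nr1d1, which encodes REV-ERB alpha, had a mean of 28.4 FPKM over all libraries, next to Nr1h3 at 28.2. It stood at 36.3, 28.4 and 22.4 FPKM in creeping fat and 34.6, 22.2 and 26.4 in controls. Its groups overlapped fully (0.06 ± 0.23, adjusted p = 0.897). Its paralogue Nr1d2 stood at 13.2 ± 2.49 against 8.70 ± 1.38 FPKM without overlap (0.54 ± 0.18, adjusted p = 0.0924), and was called higher without both creeping fat 2 and control 2 (0.64, adjusted p = 0.0443). Rora, the activator that competes with them for the same sites, stood at 4.33 ± 0.215 against 5.02 ± 0.373 FPKM (adjusted p = 0.431). The labels do not say at which hour of the day tissue was taken. Nr1d1 and Thra share 263 exonic bases on opposite strands, 8.55% of the Nr1d1 exons and 5.7% of those of Thra, and the strand setting of the counting was not given, so reads there cannot be told apart.

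The NR4A receptors are orphans that cells induce within the first wave of a stimulus, as they do the Fos and Egr genes. Nr4a1 stood at 12.5, 12.1 and 11.4 FPKM in creeping fat and at 7.35, 9.81 and 9.68 in controls. The creeping fat libraries were all above the controls, but the gene did not pass (0.39 ± 0.15, adjusted p = 0.134). Nr4a2 (1.24 ± 0.252 against 1.3 ± 0.108 FPKM) and Nr4a3 (2.53 ± 0.304 against 2.21 ± 1.31) did not pass either. Of 14 other immediate early genes tested, 7 rose in the same fit, with a median of 0.87, among them Fos (2.57 ± 0.22, adjusted p = 0.00133) and Fosb (2.26 ± 0.31, adjusted p = 0.0055). Whether the fold changes of the NR4A genes differ from those of Fos and Fosb was not tested.

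Esrra, the orphan that drives mitochondrial genes, stood at 9.49, 12.0 and 10.7 FPKM in creeping fat and 12.7, 17.5 and 12.8 in controls. The groups did not overlap, and the gene did not pass (-0.38 ± 0.17, adjusted p = 0.201). Esrrb and Esrrg were under the filter, at no more than 0.15 and 0.326 FPKM.

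Hnf4a, a master regulator of liver, gut and kidney epithelium, varied within both groups. It stood at 6.37, 5.3 and 0.712 FPKM in creeping fat and 0.848, 3.09 and 1.42 in controls, so creeping fat 3 lay below every control. It did not pass (0.71 ± 0.59, adjusted p = 0.481), and its value ranged from 0.32 to 1.37 with 1 library left out. The 7 gut epithelial markers found (Epcam, Vil1, Cdh17, Lgals4, Cdx2, Muc2 and Krt20) summed to 150.1, 119.0 and 15.6 FPKM in creeping fat and 9.02, 58.3 and 43.8 in controls, with none at 0 in either group and none called by limma (1 higher at an unadjusted p under 0.05). Nr1i2, the xenobiotic sensor PXR of liver and gut, showed 67, 55 and 11 reads in creeping fat and 3, 36 and 17 in controls. Hnf4g, the gut and kidney paralogue of Hnf4a, showed 28, 36 and 1 reads and 0, 14 and 13. Creeping fat 1 and 2 were thus the highest libraries in Hnf4a, Nr1i2, Hnf4g and the gut marker sum alike, and also in Vdr. Nr1h4 differed, since creeping fat 1 was the lowest of its group and lay below control 2. In the controls, Vdr, Nr1h4 and the marker sum were all highest in control 2 and lowest in control 1. Creeping fat 3 broke the parallel between Vdr and the marker sum. Its Vdr value was above every control, while its marker sum was below those of control 2 and 3. The part of gut epithelium in the Vdr result was not tested.

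**Figure D3:**
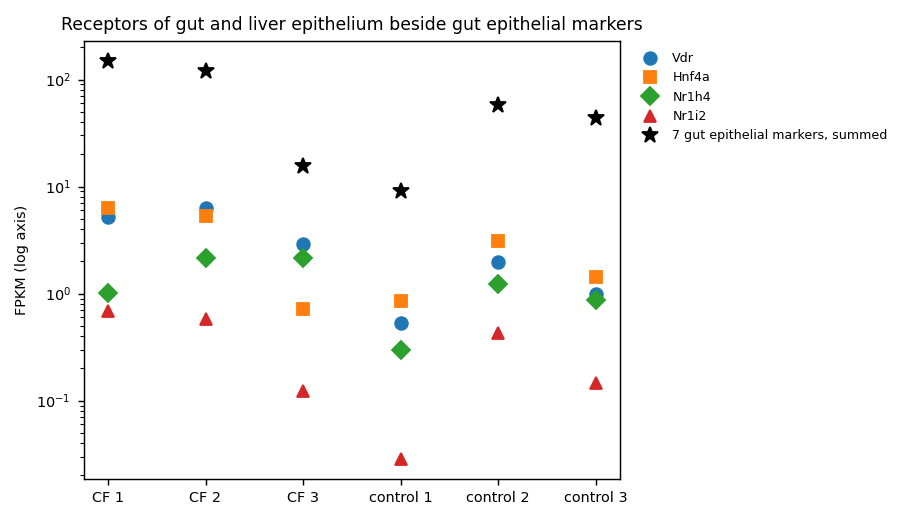
FPKM on a log axis of Vdr, Hnf4a, Nr1h4 and Nr1i2 and the sum of 7 gut epithelial markers in each of the 6 libraries (CF, creeping fat). Vdr, Hnf4a, Nr1i2 and the marker sum are all highest in creeping fat 1 and 2. Nr1h4 is not, with creeping fat 1 the lowest of its group and below control 2. In the controls all of them, Nr1h4 included, are lowest in control 1 and highest in control 2. In creeping fat 3, Vdr is above every control while the marker sum is below control 2 and 3.

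Nr5a2, a receptor of liver and pancreas also known as LRH-1, stood at 1.24, 1.64 and 0.642 FPKM in creeping fat and 1.69, 2.92 and 0.876 in controls. The groups overlapped and it did not pass (-0.34 ± 0.31, adjusted p = 0.527). Control 2, the library with the most Nr5a2, also had the highest summed acinar markers (43717 FPKM, against 36224 and 17069 in control 1 and 3). Creeping fat 2, with the most Nr5a2 of its group, had 5657 FPKM against 116 and 28.1 in creeping fat 1 and 3. Between the groups the order did not hold. Creeping fat 1 had more Nr5a2 than control 3 (1.24 against 0.876 FPKM) with fewer acinar markers (116 against 17069 FPKM). The part of pancreatic tissue in the Nr5a2 values was not tested.

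The 14 receptors under the filter reached at most 1.06 FPKM, the value of Nr6a1, a germ cell orphan, in control 2. They were Esr2, Pgr, Nr1i2, Nr1i3, Rorb, Esrrb, Esrrg, Hnf4g, Nr2e1, Nr2e3, Nr5a1, Nr6a1, Nr0b1 and Nr0b2. Nr2e1 and Nr0b1 had 0 reads in all 6 libraries, where the limit a count of 0 allows is 3 reads. Esrrb, an orphan of pluripotent cells, showed 0, 1 and 5 reads in creeping fat and 27, 24 and 16 in controls without overlap. Rorb, the neural form of ROR, showed 34, 50 and 125 reads against 15, 22 and 20, likewise without overlap. The same was the case for Pgr and for Nr2e3 (5, 25 and 6 reads against 0, 4 and 0). The share of all genes under the filter without overlap was not computed, so these are descriptions of low counts. Nr0b2, the bile acid-induced corepressor SHP, showed 1, 24 and 0 reads against 31, 10 and 5. Nr1i3, the xenobiotic sensor CAR, is uncertain because 74.9% of its exonic bases are also exons of Tomm40l on the other strand.

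In the whole list, 15 of the 31 tested receptors had groups that did not overlap, 6 higher and 9 lower in creeping fat, or 48.4%. Among all genes tested the share was 37.0%. Of those 15, 9 were not called.

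**Figure D4:**
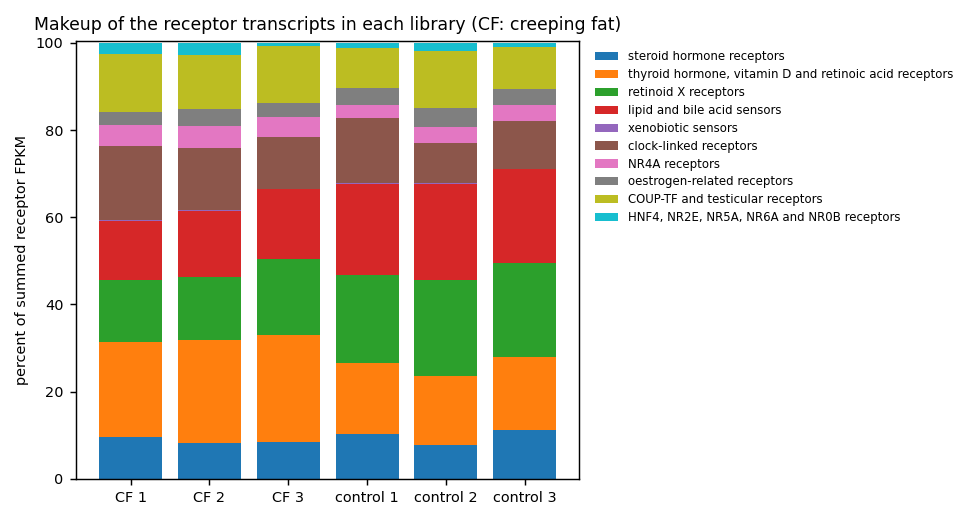
Share of the summed FPKM of the 45 receptors held by each receptor class in each library (CF, creeping fat), as stacked percent. RXR genes hold 14.2% to 17.4% in creeping fat and 20.2% to 22.1% in controls, and receptors of thyroid hormone, vitamin D and retinoic acid hold 22% to 24.5% and 15.9% to 16.8%.

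The 45 receptors summed to 335, 311 and 332 FPKM in creeping fat and 330, 400 and 351 in controls, so their total overlapped between the groups while its makeup shifted. NR4A genes held 4.62% to 5.12% of the total in creeping fat and 2.96% to 3.71% in controls. Steroid hormone receptors held 8.13% to 9.48% and 7.64% to 11.1%, with overlap. In controls the 3 most abundant receptors by group mean were Rxra (54.2 ± 4.63 FPKM), Nr1h3 (41.0 ± 5.03) and Nr1d1 (27.7 ± 6.29). In creeping fat they were Rxra (30.7 ± 4.70), Nr1d1 (29.1 ± 6.96) and Thra (27.0 ± 3.76), and the libraries of these 3 genes overlapped.

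Receptors work through cofactors, ligands and target genes, which were counted from fixed lists in the same fit, where 16.2% of all genes were called. None of 13 tested coactivators was called by limma (1 higher and 2 lower at an unadjusted p under 0.05), and their median was 0.09. Crebbp, an acetyltransferase with the highest mean of them over all 6 libraries (24.2 FPKM, next to Ncoa3 at 23.8), stood at 24.6 ± 2.25 against 23.8 ± 7.59 FPKM. Of 10 corepressors Nrip1 alone was called. Nrip1, the corepressor RIP140 of adipocyte metabolism, fell by 0.89 ± 0.19 (8.15 ± 0.466 against 16.3 ± 4.19 FPKM, adjusted p = 0.0236). None of the 9 tested receptor chaperones was called by limma (1 lower at an unadjusted p under 0.05; median -0.30), with Hspa8 at 461.0 ± 79.9 against 605.1 ± 62.4 FPKM.

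Of 18 tested genes that make, carry or break down ligands, 5 were called higher and 3 lower. Of the 5, Crabp2 and Cyp7b1 reached 1 FPKM in creeping fat libraries only, so they entered the test through the group where they are high, and their values are a description. Cyp7b1, which hydroxylates oxysterols, had 5.56, 5.78 and 3.62 FPKM in creeping fat and 0.633, 0.842 and 0.86 in controls. Crabp2, which carries retinoic acid to its receptors, had 3.35, 10.4 and 1.62 FPKM in creeping fat and 0.0286, 0 and 0.0256 in controls. Neither gene's groups overlapped. Hsd17b12, a reductase of fatty acid elongation, fell by 1.63 ± 0.40 (adjusted p = 0.0356), and Fabp4, the fatty acid carrier that is also an adipocyte marker, fell by 2.66 ± 0.50 (adjusted p = 0.0147).

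Of 17 tested target genes of the PPARs, which handle fatty acid uptake, storage and oxidation, 9 fell and 0 rose (0 higher at an unadjusted p under 0.05 in limma), with a median of -0.86. Pdk4, which switches fuel use to fat, fell by 1.89 ± 0.18 (adjusted p = 0.00169), and Ucp3 fell by 3.15 ± 0.33 (adjusted p = 0.00272). PPAR targets respond to Pparg as well as to Ppara and Ppard.

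LXR targets split. Fasn and Scd1, lipogenic genes that SREBP1 and insulin also control, fell by 3.58 ± 0.66 and 3.37 ± 0.56 (adjusted p = 0.0139 and 0.00998). Pltp and Apoe, lipid carriers also made by macrophages, rose by 1.34 ± 0.18 and 1.11 ± 0.20 (adjusted p = 0.00498 and 0.0135). In all 3 of 10 fell and 2 rose, with a median of -0.41. The cholesterol exporter Abca1, named after its values were seen, did not pass (0.59 ± 0.19, adjusted p = 0.0864).

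Thyroid hormone receptor targets had 3 of 4 lower (median -2.45), led by Me1 at -3.65 ± 0.80 and Thrsp at -3.44 ± 0.64 (adjusted p = 0.0247 and 0.0144), both lipogenic genes. Glucocorticoid receptor targets had 1 of 13 higher and 3 lower (median 0.03). Zbtb16 fell by 2.11 ± 0.23 (adjusted p = 0.00285) and Sult1a1 by 1.31 ± 0.21 (adjusted p = 0.00908), while Sgk1 rose by 0.72 ± 0.19 (adjusted p = 0.0448). Of 7 REV-ERB and ROR targets Nfil3 alone rose, by 0.73 ± 0.13 (adjusted p = 0.0129; list median -0.26).

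**Figure D5:**
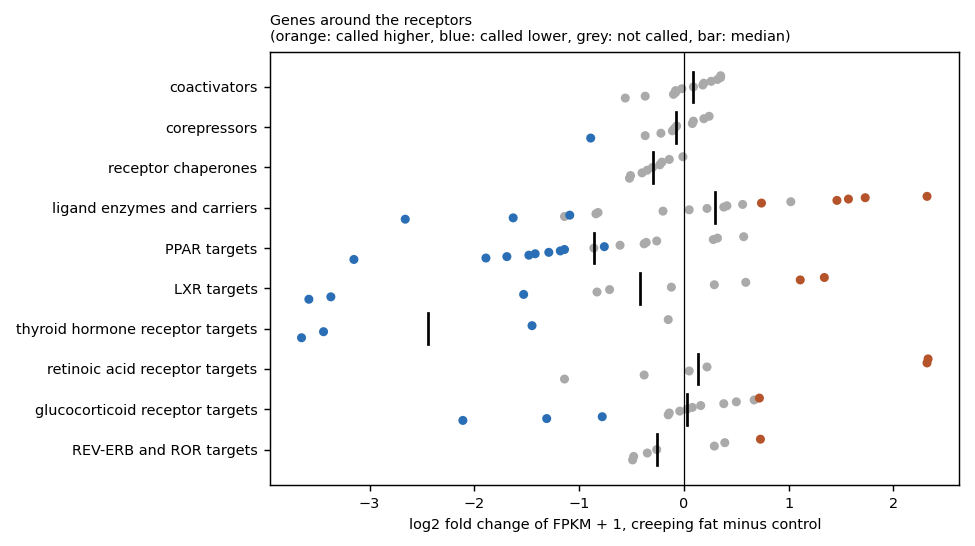
Log2 fold change of FPKM + 1, creeping fat minus control, of each tested gene in 10 lists of cofactors, ligand enzymes and receptor targets (orange called higher, blue called lower, grey not called; bar, list median). Coactivators, corepressors and chaperones lie near 0 with Nrip1 as the 1 call, while PPAR and thyroid hormone targets extend to the left.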

How the data were processed

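Libraries were made from total RNA with a stranded kit after ribosomal RNA removal, per the labels' protocols. The authors deposited 1 table of FPKM for 22134 symbols in 6 libraries, with mm10 named as build in the submitters' processing notes. Its aligner, counter, annotation and strand setting are not given in the sources used here. Whole reads were recovered from the steps of the FPKM values (tolerance 0.002 reads) for all 18714 genes above 0. The totals per library follow from them, and a floor of 3 reads in a 1 kb gene is 0.0691 to 0.0962 FPKM, which covers counting error only. The smallest length that fits was taken, so counts of genes with few reads are lower limits. The lengths implied for Rora (51763 bases) and Pgr (27375) are long for a transcript. Among others, those of Rorb (18342), Thrb (14960) and Ppara (10433) also exceed the GENCODE exonic bases (11076, 7403 and 3836). The FPKM levels of such genes against other genes depend on these lengths.

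A gene was tested if 3 or more of the 6 libraries reached 1 FPKM, on log2(FPKM + 1) with limma 3.58.1 (R 4.3.3; lmFit, eBayes with trend, group as the only term, two-sided, Benjamini-Hochberg over 12812 genes), and the script was tested on simulated data. A call is an adjusted p under 0.05. Fold changes are creeping fat minus control with limma's SE, and understate the change of low genes. Members and lists were chosen with earlier results of these data known. Full values are given for every called receptor and for the most abundant uncalled one of each class, and the lists name up to 2 called genes in each direction. Genes described beyond this rule (Rarg, Nr1d2, Nr5a2, Cyp24a1, Abca1, Lyz2, Cd163 and the paralogues of named receptors) were chosen after their values were seen. The same holds for the receptors under the filter whose reads are given by library. Gene positions are from GENCODE M21 and promoters from RefSeq, both GRCm38. Alternatives varied the pseudocount, filter, scaling, variance moderation, unit (voom on recovered reads), a replicate block and the libraries used. Set tests were not run. The counts of the retinoic acid target list are not reported here.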

Additional observations from a re-analysis of the deposited data

How the results depend on the processing

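Nr1h3, Rxrg and Nr2f1 were called in the same direction under each of the alternatives in which they were tested (18, 17 and 17). Ppara kept its call in 13 of 17, Rxra in 14 of 18 and Vdr in 12 of 17, and the direction of all 6 held throughout. Esr2, Nr5a1 and Nr2e3 had at most 8, 6 and 25 reads in a library, where counting error is large.

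The number of receptors called higher (2) was 1 with no filter, 1 where a mean of 5 FPKM was required, and 5 without both creeping fat 2 and control 2. The number called lower (4) was 2 under that mean filter. The mean filter leaves 17 receptors, without Vdr, Nr2f1, Rxrg and Ppara, and its 1 receptor called higher is Rarg (adjusted p = 0.0498 in limma). With 1 library left out, receptors called higher ranged from 1 to 5 and lower from 2 to 6. All genes called higher (1198) ranged from 576 to 2896 and lower (872) from 287 to 1857, and without creeping fat 2 and control 2 they were 2713 and 1731. Genes called on the cofactor, ligand enzyme and target lists were 32 of 102 tested, beside 16.2% of all genes tested. They ranged from 13 to 50 with 1 library left out and were 51 without creeping fat 2 and control 2. These 102 genes include the retinoic acid targets. They also include Crabp2 and Cyp7b1, which passed the filter through creeping fat libraries only. The median of all genes shifted to 0.131 without control 2 and 0.15 without both libraries.

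The labels do not say that the replicate numbers of the titles pair the libraries, and no sign of pairing was seen. Deviations from the group means correlated at -0.181, -0.18 and -0.081 for numbers 1 to 3, and no library correlated best with its own number. With 3 libraries per group the deviations are not independent, so this check cannot exclude a pairing. With a replicate block, 636 of 12812 genes were called higher and 378 lower, receptors lower numbered 2 of 31, and list genes called numbered 17 of 102. Ppara (adjusted p = 0.0527) and Rxra (adjusted p = 0.0747) were then not called by limma.

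With 1 library left out, Rxrb ranged from -0.06 to 0.42, Nr1h2 from -0.06 to 0.12, Nr1d1 from -0.11 to 0.23 and Nr2f2 from -0.20 to 0.20. Of these uncalled receptors, Nr1h2 changed sign under median of ratios (-0.02), without creeping fat 3 (-0.04) and without control 1 (-0.06). Rxrb was at -0.06 without control 1. Nr1d1 was at -0.11 without creeping fat 1, -0.08 without control 2 and -0.08 without creeping fat 2 and control 2. Nr2f2 was at 0.09 without creeping fat 2, 0.20 without control 2 and 0.33 without both. The causes of these changes were not tested.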
